A study of Mus musculus with 90 samples.

Results

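Esrra and 7 further regulators of mitochondrial biogenesis were followed across 3 brain regions of male mice after a social challenge. The 8 genes (Esrra, Esrrb, Esrrg, Ppargc1a, Ppargc1b, Nrf1, Gabpa and Tfam) were taken from the 37991 gene entries of the count table by matching Ensembl identifiers to these symbols. All 8 had an entry, and all 8 passed the filter on low counts in every fit. The genes were listed by name and not by how they behaved, although they were chosen with earlier results of these data known.

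The residents were C57BL/6J males that had each shared a cage with a female. An intruder resident met an unfamiliar BALB/cJ male, held inside a wire-mesh cage, for 5 min, and a control resident met the same cage with a paper cup in it. Residents were killed 30, 60 or 120 min later, and amygdala, frontal cortex and hypothalamus were dissected. Region, exposure and time define 18 groups and 90 libraries: 15 groups have 5 libraries, both frontal cortex groups at 120 min have 6, and the hypothalamus control group at 30 min has 3. The labels name no allele and no drug, and per the design text controls and intruder residents shared the housing and the 5 min cage presentation. The column names of the count table carry a tag that splits the times: ISO on all 28 libraries at 30 min, and CERV on all 30 at 60 min and all 32 at 120 min. The sources used here do not define the tag (the design text gives 1 way of killing, cervical dislocation, for all residents), so 30 min cannot be told apart from whatever the tag marks, in any region. Controls and intruder libraries of the same time carry the same tag. The labels name 32 animals, 28 of which gave all 3 regions. The design text says that RNA samples were pooled to make libraries, whereas the labels give each library a single animal, so it is not settled how far replicates are separate animals, and p-values measure the spread between these libraries. The series title ties a metabolic to a neural response to social challenge, and the comparison of intruder with control libraries asks whether the levels of these regulators took part.

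Libraries held 38.6 to 58.9 M reads assigned to genes (median 49.0 M), and the lowest count of any of the 8 genes in any library was 37 reads. Levels are given as CPM, counts scaled to a library of standard size after normalisation, which are not corrected for gene length, so levels are compared between samples and not between genes. Differences are log2 fold changes with their standard error from edgeR's quasi-likelihood fit, p-values are two-sided and adjusted by Benjamini-Hochberg over all genes tested, and a gene is called when its adjusted p is below 0.05. The tissue labels were checked with marker lists, scored as the mean log2 of CPM plus 1. Hypothalamic markers scored 5.13 to 6.46 in hypothalamus and at most 2.26 in the other regions, and cortical markers scored 6.67 to 7.51 in frontal cortex and at most 5.53 elsewhere. The amygdala list separated the regions less, with 4.97 to 5.64 in amygdala, 4.83 to 5.46 in hypothalamus and 3.71 to 5.22 in frontal cortex. The striatal list ranged from 3.87 to 7.87 among amygdala libraries and from 3.03 to 6.92 among frontal cortex libraries, against 3.44 to 4.59 in hypothalamus. One frontal cortex library, intruder 120 min replicate 1, stood apart from the other 5 of its group, with a hypothalamic score of 1.44 (others at most 0.421), an amygdala score of 5.22 (others at most 4.40) and a thalamic score of 4.52 (others at most 3.52). In such bulk tissue, fewer cells of a type and less RNA per cell cannot be told apart.

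Estrogen-related receptors are orphan nuclear receptors that bind DNA without a known natural hormone and raise transcription of genes for oxidative metabolism. Their activity depends on the coactivators PGC-1alpha and PGC-1beta, encoded by Ppargc1a and Ppargc1b, which join signals on energy demand to the mitochondrial programme. NRF1 and GABP, whose DNA-binding subunit is encoded by Gabpa, drive nuclear genes of the respiratory chain, and among their known targets is Tfam, whose product packages mitochondrial DNA and starts its transcription. In brain, PGC-1alpha is known to be prominent in fast-spiking parvalbumin interneurons, cells with a high demand for ATP.

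The 250 bases upstream of Esrra and of Tfam are shown because they hold letters of a motif bound by another of the 8 gene products. Both come from RefSeq promoters of build GRCm38.p6, and capitals mark the motif match. The Esrra stretch lies at chr19:6921809-6922058 and the Tfam stretch at chr10:71238045-71238294, both on the minus strand and immediately upstream of the annotated start, and both are written 5′ to 3′.
Esrra: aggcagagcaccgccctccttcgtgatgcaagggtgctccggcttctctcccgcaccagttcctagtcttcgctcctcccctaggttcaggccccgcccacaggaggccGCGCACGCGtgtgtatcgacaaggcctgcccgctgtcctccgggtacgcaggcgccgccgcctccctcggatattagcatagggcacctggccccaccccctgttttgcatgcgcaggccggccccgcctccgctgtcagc
Tfam: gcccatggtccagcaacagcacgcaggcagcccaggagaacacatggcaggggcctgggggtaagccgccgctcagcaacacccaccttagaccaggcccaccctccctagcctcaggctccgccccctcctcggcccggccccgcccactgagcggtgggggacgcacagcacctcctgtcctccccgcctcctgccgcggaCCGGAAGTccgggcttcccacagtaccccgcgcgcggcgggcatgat

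In the Esrra promoter the NRF1 motif, searched as GCGCANGCG on both strands, had 1 match, GCGCACGCG, which begins at base -141 from the start. In the Tfam promoter the GABP motif, searched as CCGGAAGT on both strands, had 1 match, which begins at base -47. Over all 32851 RefSeq mouse promoters of the same length (300 bases, 250 before and 50 after the start), 6.25% held the NRF1 letters and 3.89% the GABP letters. The ERR element (TNAAGGTCA, in 1.28% of all promoters) and the cyclic AMP response element (TGACGTCA, in 1.79%) had no match in the promoters found for 7 of the 8 genes, and the NRF1 and GABP letters had no match there beyond those shown. The 4 motifs did not overlap at the matches shown. A match describes the letters of the window and is not a measured binding site.

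Esrra, which encodes ERRalpha, was highest in frontal cortex, intermediate in amygdala and lowest in hypothalamus. Its level was 58.5 ± 5.56 CPM (SD, n = 32) in frontal cortex, 38.4 ± 5.71 CPM (SD, n = 30) in amygdala and 27.1 ± 3.16 CPM (SD, n = 28) in hypothalamus. Frontal cortex libraries ran from 46.8 to 68.7 CPM, amygdala libraries from 29.8 to 49.4 CPM and hypothalamus libraries from 19.8 to 32.8 CPM. No hypothalamus library reached the lowest frontal cortex library, 3 of 30 amygdala libraries lay above the lowest frontal cortex library, and 6 of 28 hypothalamus libraries lay above the lowest amygdala library. Frontal cortex exceeded amygdala by 0.60 ± 0.043 (SE) on the log2 scale (edgeR adjusted p = 5.09e-22) and hypothalamus by 1.10 ± 0.045 (adjusted p = 5.56e-37). Amygdala exceeded hypothalamus by 0.50 ± 0.045 (adjusted p = 5.66e-17). As ratios of the mean CPM these differences were 1.52, 2.16 and 1.42.

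**Figure D1:**
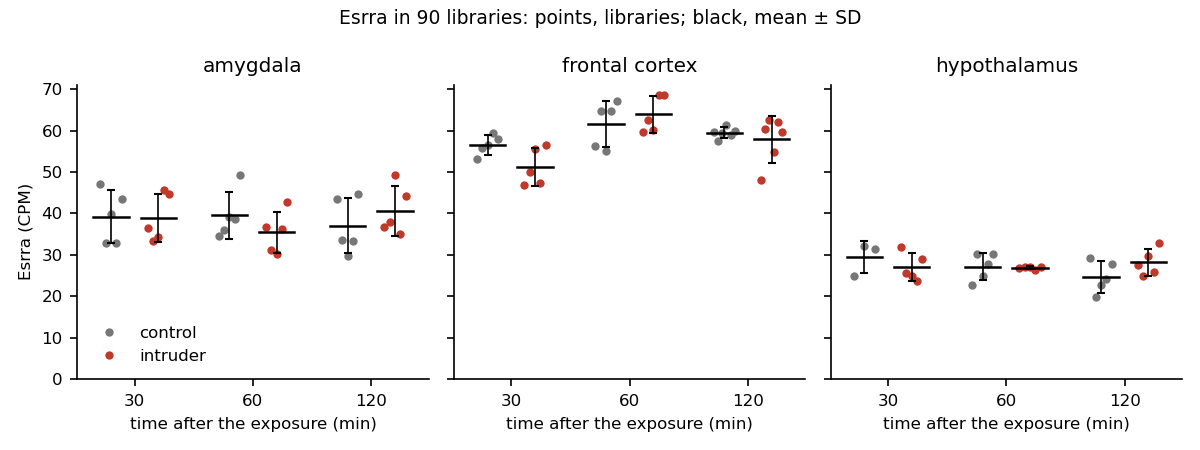
Esrra level (CPM, vertical axis, starting at 0) in each library, by region, time and exposure, with the mean and SD of each group (grey controls, red intruder libraries). All frontal cortex groups (means 51.2 to 63.9 CPM) stand above all amygdala groups (35.5 to 40.6 CPM), which stand above all hypothalamus groups (24.7 to 29.5 CPM), and control and intruder points overlap at every time.

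Ordered by mean Esrra level, the 18 groups fell into 6 of frontal cortex, then 6 of amygdala, then 6 of hypothalamus. Of the 17 gaps between neighbours in that order, 3 were larger than the larger SD of the groups on either side. They were the step from frontal cortex to amygdala (51.2 to 40.6 CPM), the step from amygdala to hypothalamus (35.5 to 29.5 CPM), and, inside frontal cortex, the step from controls at 30 min (56.5 ± 2.41 CPM) to intruder libraries at 30 min (51.2 ± 4.54 CPM). The other neighbours did not differ beyond their spread. For each of the other 7 genes, 0 of 17 gaps passed this mark.

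The other receptor genes had the same region on top but with broad overlap. Esrrb, which encodes ERRbeta, had the fewest reads of the 3 and averaged 2.35 CPM in frontal cortex, 2.09 CPM in amygdala and 1.65 CPM in hypothalamus, and 26 of 30 amygdala libraries lay above the lowest frontal cortex library. The Esrrb call between these regions held in 82 of the 90 fits that each left out a library. Esrrg, which encodes ERRgamma, averaged 32.9 ± 4.85 CPM (SD, n = 32) in frontal cortex, 24.0 ± 7.60 CPM (SD, n = 30) in amygdala and 26.9 ± 8.26 CPM (SD, n = 28) in hypothalamus. Its frontal cortex level exceeded that of amygdala by 0.46 (log2, adjusted p = 1.45e-05) and that of hypothalamus by 0.28 (adjusted p = 0.00683), whereas amygdala minus hypothalamus was -0.18 and did not pass (adjusted p = 0.0881). The regions come largely from the same animals, and with the animal as a block that difference was -0.17 and passed (adjusted p = 0.0452), as it did with upper-quartile scaling (-0.23, adjusted p = 0.0270).

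Among the coactivators, Ppargc1a averaged 56.8 CPM in frontal cortex, 53.3 CPM in amygdala and 44.2 CPM in hypothalamus, so hypothalamus was lower than frontal cortex by 0.36 (log2, adjusted p = 8.36e-13) and lower than amygdala by 0.27 (adjusted p = 1.64e-08). The excess of frontal cortex over amygdala was 0.09 (adjusted p = 0.0376), and with upper-quartile scaling it did not pass (adjusted p = 0.0612). It passed in 76 of the 90 fits that each left out a library (highest adjusted p 0.0745, without frontal cortex intruder 60 min replicate 1), and at 60 min the frontal cortex means (51.4 CPM in controls, 50.6 CPM in intruder libraries) were below those of amygdala (53.7 and 54.0 CPM). Ppargc1b ran the other way when all times were pooled. It averaged 5.45 CPM in frontal cortex, 6.40 CPM in amygdala and 6.77 CPM in hypothalamus, and frontal cortex was lower than amygdala (-0.28, adjusted p = 0.00149) and lower than hypothalamus (-0.37, adjusted p = 3.63e-05). The order differed by time: at 30 min the frontal cortex means of 6.89 CPM in controls and 7.41 CPM in intruder libraries were above the amygdala means of 5.73 and 5.27 CPM, whereas at 60 min they were 3.35 and 3.96 CPM against 6.43 and 6.83 CPM. Regions were not tested at single times.

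The nuclear factors and their target differed less between regions. Nrf1 averaged 18.7 CPM in frontal cortex, 19.0 CPM in amygdala and 22.0 CPM in hypothalamus, and hypothalamus exceeded frontal cortex, a difference written as -0.23 for frontal cortex minus hypothalamus. Gabpa averaged 29.9, 34.2 and 31.4 CPM in frontal cortex, amygdala and hypothalamus, with frontal cortex 0.20 lower than amygdala on the log2 scale (-0.20, adjusted p = 3.53e-10). At 30 min the frontal cortex means of Gabpa, 33.3 CPM in controls and 34.0 CPM in intruder libraries, were above those of amygdala (32.8 and 29.6 CPM), and at 60 min they were below (25.3 and 25.6 CPM against 35.2 and 35.8 CPM). Tfam averaged 34.9 CPM in frontal cortex, 34.8 CPM in amygdala and 38.2 CPM in hypothalamus, and frontal cortex minus hypothalamus was -0.12 (adjusted p = 2.84e-08). Frontal cortex and amygdala did not pass the test against each other for Nrf1 (-0.02, adjusted p = 0.451) or Tfam (0.01, adjusted p = 0.820).

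Called genes among the 8 were 6 for frontal cortex against amygdala (4 higher and 2 lower, with 76.7% of all tested genes called), 8 for frontal cortex against hypothalamus (4 higher and 4 lower, with 87.4% called) and 6 for amygdala against hypothalamus (4 higher and 2 lower, with 80.1% called). With so many genes differing between regions, these counts are near the background, and the sizes of the differences say more than the number of calls.

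**Figure D2:**
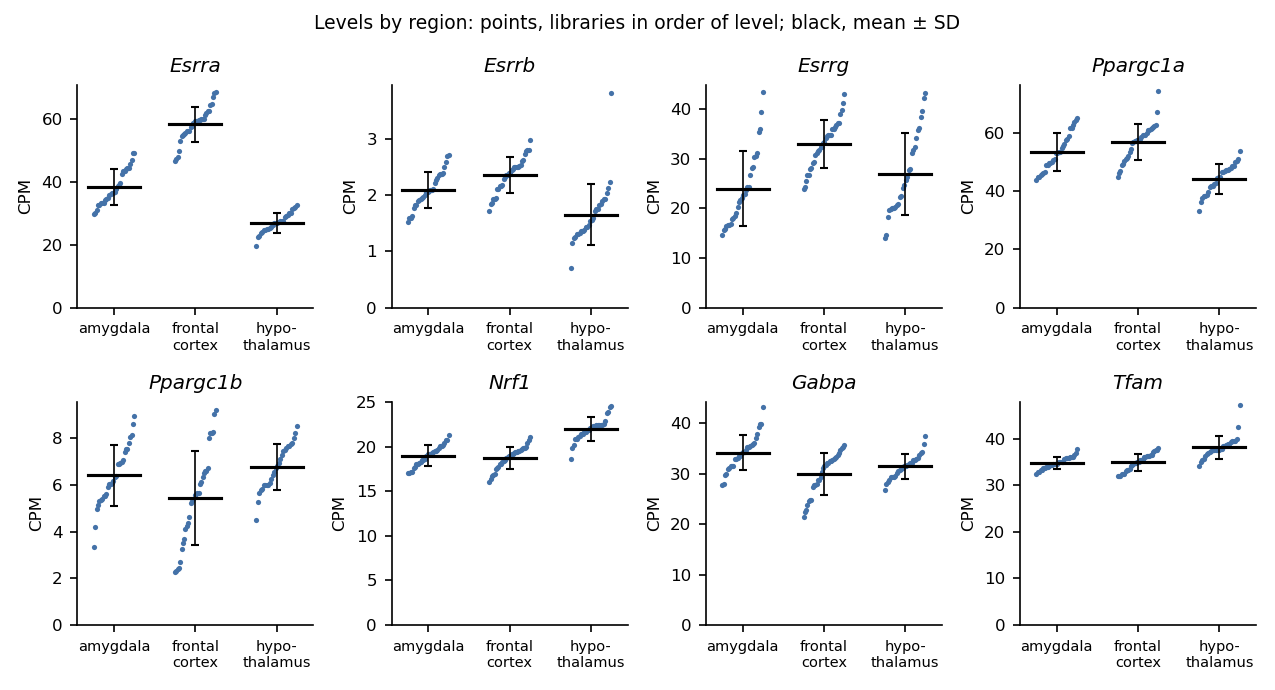
Level of each of the 8 genes (CPM, vertical axes, one panel a gene) in every library of the 3 regions, placed in order of level, with the mean and SD. Esrra is the gene whose frontal cortex and hypothalamus points do not overlap at all, at 46.8 CPM and above against 32.8 CPM and below, while the points of the other 7 genes overlap between all regions.

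In the comparison of intruder with control libraries, Esrra did not pass the test in any region at any time. Its 9 log2 differences ran from -0.16 to 0.19, adjusted p-values ran from 0.491 to 1, and the 95% intervals lay between -0.42 and 0.40. In amygdala at 30 min the control libraries read 32.7, 32.8, 39.8, 43.6 and 47.1 CPM and the intruder libraries 33.4, 34.2, 36.5, 44.6 and 45.8 CPM (log2 difference -0.01 ± 0.133, SE). At 60 min the controls read 34.6, 36.0, 38.7, 39.1 and 49.2 CPM and the intruder libraries 30.3, 31.2, 36.2, 36.8 and 42.8 CPM (-0.16 ± 0.133). At 120 min the controls read 29.8, 33.5, 33.5, 43.6 and 44.6 CPM and the intruder libraries 35.0, 36.7, 37.9, 44.1 and 49.4 CPM (0.14 ± 0.133). The 2 sets of libraries overlapped at each of these times, and the spread inside a group was larger than the difference between groups.

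In frontal cortex Esrra came nearest to a difference at 30 min. The 5 controls read 53.0, 55.8, 56.5, 58.0 and 59.4 CPM and the 5 intruder libraries 46.8, 47.3, 50.0, 55.5 and 56.4 CPM. Of the intruder libraries, 3 were below every control and the other 2 lay inside the control range. The log2 difference was -0.15 ± 0.064 with an unadjusted edgeR p of 0.0295 and an adjusted p of 0.771. At 60 min controls read 55.0, 56.3, 64.7, 64.8 and 67.2 CPM and intruder libraries 59.7, 60.1, 62.6, 68.6 and 68.7 CPM (0.05 ± 0.063). At 120 min the 6 controls ran from 57.5 to 61.4 CPM (median 59.6) and the 6 intruder libraries from 48.0 to 62.6 CPM (median 59.9), a difference of -0.04 ± 0.058. The lowest intruder library is replicate 1, the one with high hypothalamic, amygdala and thalamic scores, and without it the difference was 0.01. The groups overlapped at all 3 times.

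In hypothalamus Esrra controls at 30 min read 25.0, 31.4 and 32.1 CPM against 23.8, 25.0, 25.5, 29.0 and 31.8 CPM in intruder libraries (-0.13 ± 0.117). At 60 min controls read 22.8, 24.9, 27.8, 30.2 and 30.3 CPM, and the intruder libraries were tightly grouped at 26.3, 26.9, 27.0, 27.2 and 27.2 CPM (-0.01 ± 0.102). At 120 min controls read 19.8, 22.6, 24.1, 27.8 and 29.1 CPM and intruder libraries 24.9, 25.7, 27.7, 29.7 and 32.8 CPM (0.19 ± 0.102, adjusted p = 0.491). Here too the libraries of both exposures overlapped.

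Gabpa, the DNA-binding subunit of GABP, gave the smallest adjusted p of the 8 genes against controls. In amygdala at 120 min the controls read 31.1, 32.9, 33.0, 33.5 and 34.1 CPM (32.9 ± 1.13, SD) and the intruder libraries 33.5, 37.1, 39.7, 39.7 and 43.1 CPM (38.6 ± 3.58, SD). Of the 5 intruder libraries, 4 were above every control. The log2 difference was 0.23 ± 0.059 (SE), with an unadjusted p of 5.36e-04 and an adjusted p of 0.0634, so edgeR did not call it. DESeq2 did call it (adjusted p = 0.0160), limma voom did not (adjusted p = 0.0698), and edgeR called it when amygdala intruder 120 min replicate 2 was left out (adjusted p = 0.0295) or amygdala control 60 min replicate 6 was left out (adjusted p = 0.0402). All 5 controls at this time carry the same first index of the library barcode, which only 1 of the 5 intruder libraries shares. With the first index as a block the difference was 0.27 and the adjusted p 0.366.

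At the earlier times the Gabpa mean in amygdala intruder libraries lay below the control mean at 30 min and near it at 60 min. At 30 min the controls read 29.7, 31.5, 32.9, 34.3 and 35.5 CPM and the intruder libraries 27.8, 27.9, 30.0, 30.8 and 31.5 CPM, a difference of -0.15 ± 0.059 (edgeR unadjusted p = 0.0185, adjusted p = 1). At 60 min the controls read 31.6, 34.7, 35.2, 35.6 and 39.2 CPM and the intruder libraries 34.2, 35.2, 35.9, 36.0 and 37.8 CPM (0.02 ± 0.059). In hypothalamus at 120 min the intruder libraries read 31.5, 32.7, 33.0, 35.8 and 37.4 CPM against a control mean of 30.8 ± 2.53 CPM (SD, n = 5) and overlapped the controls (0.14 ± 0.053, unadjusted p = 0.0138, adjusted p = 0.347). In frontal cortex at 120 min the difference was 0.13 ± 0.074 (adjusted p = 0.964).

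Counted over the 8 genes, edgeR called 0 in amygdala at 30 min (0% of all tested genes called), 0 at 60 min (0%) and 0 at 120 min (0.538%). It called 0 in frontal cortex at 30 min (0%), 60 min (0%) and 120 min (0%), and 0 in hypothalamus at 30 min (0%), 60 min (0%) and 120 min (0.192%). These are 72 tests, of which 4 had an unadjusted p below 0.05: Gabpa in amygdala at 30 and at 120 min, Gabpa in hypothalamus at 120 min, and Esrra in frontal cortex at 30 min. DESeq2 called 1 of the 72 and limma voom 0. In all 72 the control and intruder libraries overlapped. The intruder effect averaged over the 3 times gave 0 calls in amygdala (0% of genes called), frontal cortex (0%) and hypothalamus (0%), with 0 of 24 tests at an unadjusted p below 0.05 and 0 calls by DESeq2 or limma voom.

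The direction of the uncalled differences is given as a description. At 120 min the fitted difference was above 0 for 8 of 8 genes in amygdala (median log2 difference 0.17, against 0.000718 over all tested genes) and for 8 of 8 in hypothalamus (median 0.12, against 0.00252 over all tested genes). In frontal cortex at 120 min it was above for 2 of 8 (median -0.01). At 30 min the counts were 3 of 8 in amygdala, 3 of 8 in frontal cortex and 1 of 8 in hypothalamus, and at 60 min they were 5, 6 and 2 of 8. The genes share libraries and several move together from library to library, as the correlations show, so the 8 are not separate observations.

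**Figure D3:**
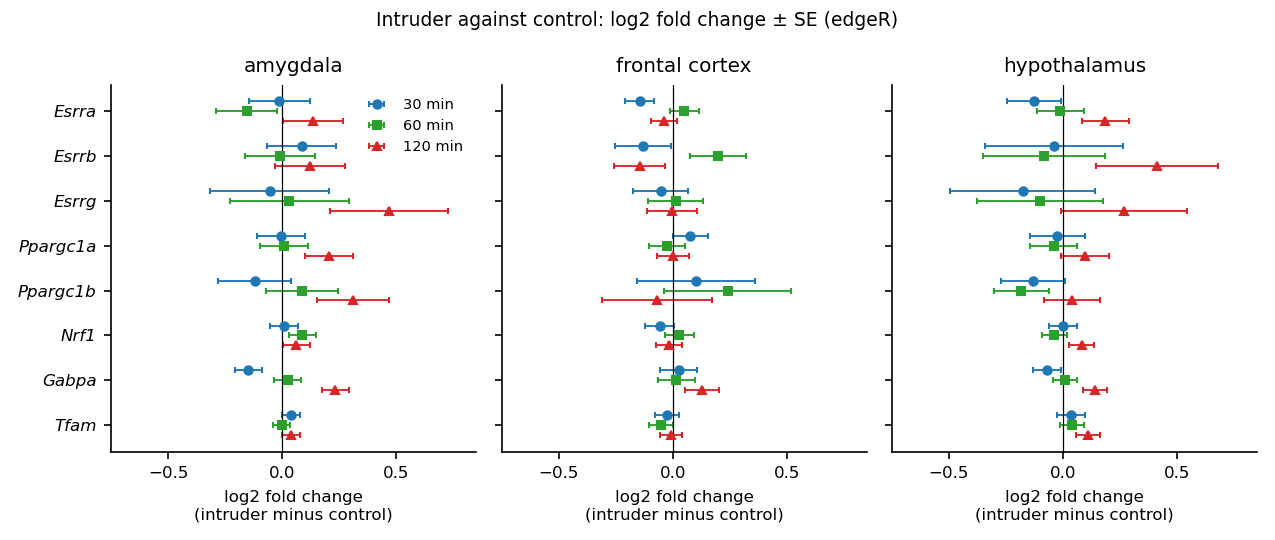
Intruder minus control difference (log2 fold change from edgeR, horizontal axes) for each of the 8 genes, one panel a region, at 30 min (blue circles), 60 min (green squares) and 120 min (red triangles), with bars for the standard error. At 120 min all 8 points lie above 0 in amygdala and in hypothalamus. None of the 72 was called by edgeR, and DESeq2 called 1 (Gabpa in amygdala at 120 min).

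Esrrg, Ppargc1a and Ppargc1b in amygdala at 120 min had larger standard errors than Gabpa. Esrrg read 15.9, 16.6, 21.2, 22.8 and 36.1 CPM in controls and 21.7, 22.8, 28.2, 39.4 and 43.5 CPM in intruder libraries (0.47 ± 0.260, adjusted p = 0.393). Ppargc1a there read 44.9, 46.7, 50.1, 50.8 and 62.7 CPM in controls and 53.0, 53.3, 59.0, 63.7 and 65.1 CPM in intruder libraries (0.21 ± 0.104, adjusted p = 0.349). Ppargc1b there read 5.42, 5.89, 6.07, 6.15 and 8.12 CPM in controls and 6.06, 7.54, 8.06, 8.59 and 8.94 CPM in intruder libraries (0.31 ± 0.158, adjusted p = 0.351). For each of these 3 genes the highest control library was replicate 6, and the groups overlapped. Nrf1 and Tfam in amygdala differed by 0.06 and 0.04.

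In hypothalamus at 120 min Esrrb differed by 0.41 ± 0.267, which rested on a single library. Intruder replicate 6 read 3.81 CPM, while the other intruder libraries lay between 1.16 and 1.84 CPM, and without that library the difference was 0.0026. Tfam there read 36.3, 37.5, 37.7, 38.4 and 38.6 CPM in controls and 36.8, 38.5, 39.0, 42.4 and 47.2 CPM in intruder libraries (0.11 ± 0.053, adjusted p = 0.438). Of the Tfam intruder libraries, 3 were above every control and the other 2 lay inside the control range.

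Markers of other tissue and cell types moved beside these differences. In amygdala at 120 min, all 5 striatal markers and all 6 parvalbumin interneuron markers were higher in intruder libraries (0 called in either list), with median log2 differences of 0.67 and 0.38. The striatal score was 5.24 ± 1.18 (SD, range 4.11 to 7.10) in controls and 6.05 ± 0.957 (range 5.08 to 7.17) in intruder libraries. The parvalbumin score was 6.18 ± 0.547 (range 5.61 to 6.97) in controls and 6.62 ± 0.468 (range 6.08 to 7.21) in intruder libraries. All 5 oligodendrocyte markers were higher as well (median 0.43, 0 called). All 5 endothelial markers were lower, with a median of -0.45 and 1 called in amygdala, and a median of -0.45 and 3 called in hypothalamus. Of the 5 mural cell markers, 3 were higher in amygdala (median 0.02), where Rgs5, a pericyte gene, was called lower (-0.51, edgeR adjusted p = 0.0379). In hypothalamus 4 of the 5 were lower (median -0.16), with Rgs5 (-0.72, edgeR adjusted p = 5.86e-04) and the smooth muscle actin gene Acta2 (-1.25, adjusted p = 0.0414) called, and the mural score was 3.67 ± 0.0931 in controls (range 3.58 to 3.79) and 3.27 ± 0.116 in intruder libraries (range 3.08 to 3.36), with no overlap. All 3 blood markers were lower in hypothalamus (median -0.57, 0 called), with scores of 4.07 ± 0.334 in controls (range 3.71 to 4.44) and 3.59 ± 0.166 in intruder libraries (range 3.39 to 3.83). In amygdala 4 of the 6 hypothalamic markers tested were higher (median 0.69, 0 called), with scores of 1.51 ± 0.321 in controls (range 1.05 to 1.84) and 1.69 ± 0.50 in intruder libraries (range 0.979 to 2.26). In hypothalamus 5 of 6 parvalbumin markers were higher (median 0.19, 0 called), and the scores were 6.36 ± 0.222 in controls (range 6.08 to 6.68) and 6.60 ± 0.394 in intruder libraries (range 6.28 to 7.24), where the library at 7.24 is the one with the high Esrrb. Of the neuron markers 4 of 5 were higher there (median 0.13, 0 called), all 5 amygdala markers were lower (median -0.13, 0 called), and 3 of 8 hypothalamic markers were higher (median -0.28, 0 called). Thalamic markers were higher for 4 of 5 in amygdala and in hypothalamus (medians 0.13 and 0.15, 0 called), as were astrocyte markers (medians 0.12 and 0.06, 0 called). Cortical markers were higher for 1 of 6 in amygdala (median -0.17, 0 called). Choroid plexus markers were higher for 0 of 5 in hypothalamus (median -0.14, 0 called). Apart from the striatal list, whose score was used as a covariate, the part of these lists in the differences of the 8 genes was not tested. No marker was at 0 in all libraries of a region.

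With the striatal score as a covariate, an alternative added after the data were seen, the amygdala differences at 120 min became smaller. Esrra went from 0.14 to 0.00124, Esrrb to 0.00313, Esrrg from 0.47 to 0.20 and Ppargc1a from 0.21 to 0.10. Ppargc1b and Gabpa changed less, from 0.31 to 0.25 and from 0.23 to 0.22 (Gabpa adjusted p = 0.0656). All 8 stayed above 0, and their median was 0.07.

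Whether the intruder effect differed between times or between regions was tested directly. Over the 3 times, 0 of 8 genes were called in amygdala (0% of genes called), frontal cortex (0%) and hypothalamus (0.0113%), and 2 of the 24 tests had an unadjusted p below 0.05, both for Gabpa. The amygdala test of Gabpa gave an unadjusted p of 4.52e-04 and an adjusted p of 0.154 in edgeR, and DESeq2 called it (adjusted p = 0.0182) whereas limma voom did not (adjusted p = 0.168). Between regions, 0 of 8 genes were called at 30 min (0%), 60 min (0%) and 120 min (0.0109%), with 0 of 24 tests at an unadjusted p below 0.05 and 0 calls by DESeq2 or limma voom. Differences between regions in how these genes answered the intruder were therefore not detectable with these libraries.

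Levels also differed between killing times, and Gabpa and Ppargc1b were the genes that did so most often. Every test over the 3 times includes the 30 min libraries, which alone carry the ISO tag, so each was repeated as 120 against 60 min, an alternative added after the data were seen. In intruder libraries of amygdala, Gabpa rose from 29.6 ± 1.69 CPM at 30 min to 35.8 ± 1.33 CPM at 60 min and 38.6 ± 3.58 CPM at 120 min (SD, n = 5 each, edgeR adjusted p = 4.54e-04 over the 3 times). No library at 60 or 120 min was as low as the highest at 30 min, 31.5 CPM. Ppargc1b read 4.18, 4.96, 5.31, 5.51 and 6.40 CPM at 30 min and then 5.37, 6.90, 6.91, 7.41 and 7.55 CPM at 60 min, and the 120 min libraries read 6.06, 7.54, 8.06, 8.59 and 8.94 CPM (adjusted p = 0.0408). Its 30 min libraries overlapped both later times. These are 2 of 8 genes, against 12.9% of all tested genes, and in amygdala controls 0 of 8 were called over time (0.232% of all genes), where Gabpa averaged 32.8, 35.2 and 32.9 CPM. Between 60 and 120 min, within the CERV tag, 0 of 8 genes were called in intruder libraries (0.0695% of all genes), none at an unadjusted p below 0.05, with Gabpa at 0.11 (log2, edgeR adjusted p = 0.490) and Ppargc1b at 0.20 (adjusted p = 0.628). In controls 0 of 8 were called (0.0232% of all genes), also with none at an unadjusted p below 0.05. A difference in time course between controls and intruder libraries is what the test over times above addresses. There edgeR called none of the 8 in amygdala, while DESeq2 called Gabpa (adjusted p = 0.0182).

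Beside the tag, the times of the amygdala intruder libraries coincide with the first index of the barcode: all 5 at 30 min carry 1 index, all 5 at 60 min another, and 4 of 5 at 120 min another again. With the index as a block, the adjusted p over time was 0.631 for Gabpa and 0.754 for Ppargc1b, and a fit that can separate time from index there does so only through the control libraries that share these indexes. From 60 to 120 min the log2 difference with the block was 0.12 for Gabpa and 0.28 for Ppargc1b (edgeR adjusted p = 0.855 and 0.871). Without the block it was 0.11 and 0.20, so these calls were lost without a smaller difference at that step. Ppargc1b also lost its call in 14 of the 30 fits that each left out a library. Most of these 14 left out an amygdala intruder library. With the striatal score as a covariate 4 of 8 genes were called over time (23.1% of all genes in that fit), now with Esrrg (adjusted p = 0.00143) and Ppargc1a (adjusted p = 0.0166). Other scores moved with time in these intruder libraries. The endothelial score averaged 5.12, 5.0 and 4.39 at 30, 60 and 120 min, and the astrocyte score 7.64, 7.75 and 7.82. Their part in the time differences was not tested.

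In frontal cortex the means of Gabpa, Ppargc1b and Ppargc1a were lowest at 60 min in controls and in intruder libraries. Gabpa in controls went from 33.3 ± 1.56 CPM (SD) at 30 min down to 25.3 ± 2.41 CPM at 60 min, and at 120 min it stood at 29.1 ± 2.82 CPM (adjusted p = 0.00158). The control libraries read 31.6, 32.4, 32.9, 34.1 and 35.6 CPM at 30 min and 22.5, 23.8, 24.6, 27.7 and 27.9 CPM at 60 min, with no overlap. In intruder libraries Gabpa read 33.2, 33.3, 33.7, 34.6 and 35.3 CPM at 30 min and then 21.4, 22.7, 24.8, 28.8 and 30.3 CPM at 60 min, while the 120 min libraries lay between 27.8 and 35.0 CPM (median 32.0, adjusted p = 3.56e-04).

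Ppargc1b in frontal cortex controls fell to 3.35 ± 0.874 CPM at 60 min from 6.89 ± 1.32 CPM at 30 min and stood at 5.65 ± 1.04 CPM at 120 min (adjusted p = 0.0102). In intruder libraries it read 5.21, 6.58, 8.01, 8.21 and 9.04 CPM at 30 min and 2.27, 2.40, 2.44, 3.50 and 9.21 CPM at 60 min, and its 6 libraries at 120 min ran from 4.26 to 6.73 CPM (adjusted p = 0.0186). The call was lost without 60 min replicate 2 (adjusted p = 0.0539), replicate 4 (0.0577) or replicate 5 (0.0541). The library at 9.21 CPM, replicate 1, stood above all libraries at 30 min, while the other 4 stood below all of them. Ppargc1a in intruder libraries was 63.2 ± 7.91, 50.6 ± 6.58 and 57.7 ± 2.81 CPM at 30, 60 and 120 min (adjusted p = 0.00316), and in controls 59.8 ± 1.70, 51.4 ± 4.57 and 57.8 ± 3.80 CPM (adjusted p = 0.0503, not called). With the striatal score as a covariate Ppargc1a passed in controls too (adjusted p = 0.0239), which made 3 of 8 there (36.4% of all genes in that fit).

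Esrra had the opposite course. In intruder libraries of frontal cortex it rose from 51.2 ± 4.54 CPM at 30 min to 63.9 ± 4.43 CPM at 60 min and stood at 57.9 ± 5.59 CPM at 120 min (adjusted p = 8.26e-04), and every library at 60 min was above every library at 30 min. In controls the means were 56.5, 61.6 and 59.5 CPM, and the test did not pass (adjusted p = 0.323). In all, 2 of 8 genes were called over time in frontal cortex controls, against 33.4% of all genes, and 4 of 8 in intruder libraries, against 46.1% of all genes. Both shares are near the background. Between 60 and 120 min, within the CERV tag, 1 of 8 was called in controls (15.9% of all genes) and 1 in intruder libraries (22.9%). In controls that was Ppargc1b (0.76 higher at 120 min, log2, edgeR adjusted p = 0.0470), with Gabpa at 0.20 (adjusted p = 0.0729). In intruder libraries it was Gabpa (0.32, adjusted p = 0.00650), with Ppargc1a at 0.20 (adjusted p = 0.0525), Ppargc1b at 0.45 (adjusted p = 0.210) and Esrra at -0.14 (adjusted p = 0.0974). In frontal cortex no first index is shared between killing times of the same exposure, and the test over 3 times could not be fitted with the index as a block. The step from 60 to 120 min in intruder libraries could be, through the controls at 60 min (an alternative added after the data were seen). It gave 0 of 8 calls and 0 over all genes, with 5 of the 8 at an unadjusted p below 0.05, among them Gabpa at 0.43 (log2, edgeR adjusted p = 0.0687) and Esrra at -0.30 (adjusted p = 0.0761).

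Marker lists moved with time in frontal cortex as well. The oligodendrocyte score in controls averaged 8.25 at 30 min (range 8.12 to 8.49), 9.0 at 60 min (8.69 to 9.29) and 8.69 at 120 min (8.39 to 9.04), and in intruder libraries 8.16 (7.79 to 8.56), 8.84 (8.60 to 9.19) and 8.78 (8.40 to 9.15). The blood score in controls averaged 3.88 (3.61 to 4.12), 4.39 (4.20 to 4.49) and 4.19 (4.01 to 4.52), and in intruder libraries 3.88 (3.46 to 4.07), 4.43 (4.08 to 4.70) and 4.01 (3.77 to 4.40). For both lists every library at 60 min was above every library at 30 min of the same exposure. The cortical score in controls averaged 7.32, 7.05 and 7.22, and the mural score 4.18, 3.86 and 4.0. In intruder libraries these were 7.18, 6.99 and 7.14, and 4.19, 3.97 and 3.98. Their part in the time differences of the 8 genes was not tested.

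In hypothalamus, 0 of 8 genes were called over time in controls (0.181% of all genes) and 1 of 8 in intruder libraries (1.49%). The called gene was Gabpa, at 28.8 ± 1.32, 32.1 ± 1.79 and 34.1 ± 2.44 CPM (SD, n = 5 each) at 30, 60 and 120 min (adjusted p = 0.0369). Its libraries read 26.8, 28.2, 29.3, 29.5 and 30.2 CPM at 30 min, and all 5 at 120 min were above them. Between 60 and 120 min, within the CERV tag, 0 of 8 were called in intruder libraries (0.441% of all genes), none at an unadjusted p below 0.05, with Gabpa at 0.08 (log2, edgeR adjusted p = 0.533). In controls 0 of 8 were called (0.0396% of all genes), with 2 at an unadjusted p below 0.05 (Ppargc1b and Nrf1, both lower at 120 min). The call over the 3 times was lost in 7 of the 28 fits that each left out a library, and without the filter on low counts (adjusted p = 0.0599). Each of these 7 left out an intruder library. A fit with the first index as a block could not be made for time in this region. Among marker scores of these intruder libraries, the endothelial score averaged 4.85, 4.79 and 4.29 at 30, 60 and 120 min. The mural score averaged 3.75, 3.71 and 3.27, and the oligodendrocyte score 9.14, 9.13 and 9.35. Their part in the time difference of Gabpa was not tested.

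**Figure D4:**
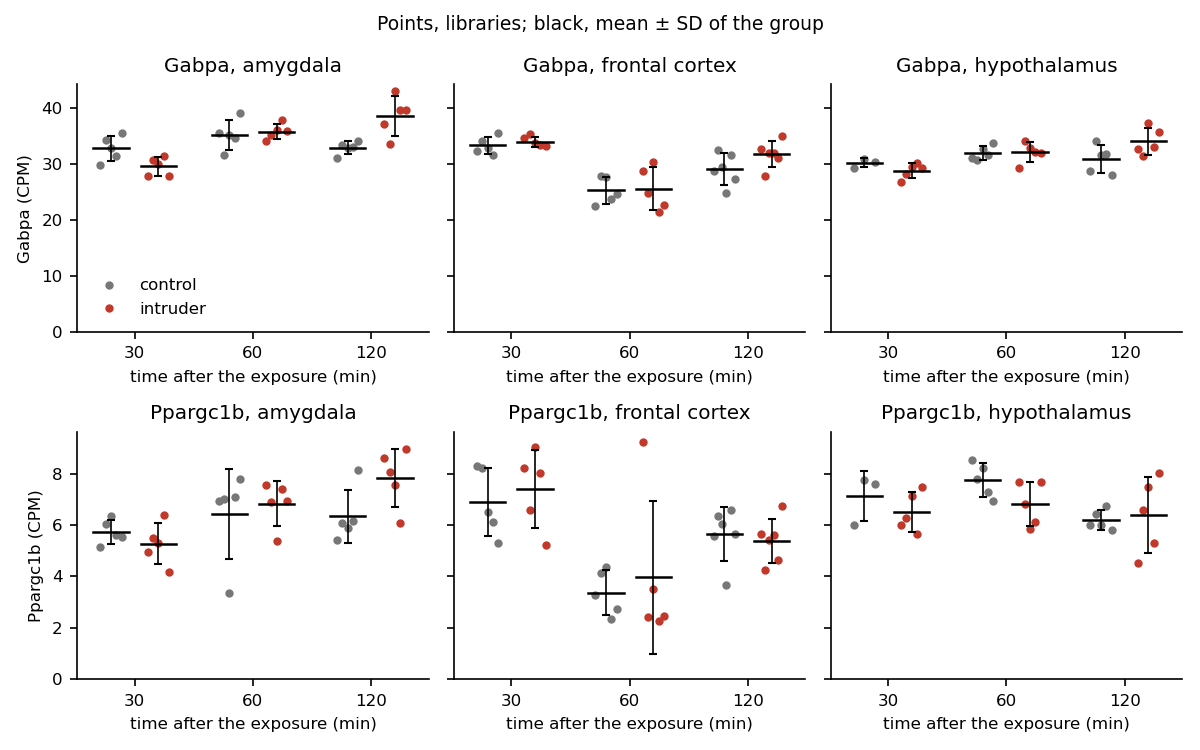
Gabpa and Ppargc1b level (CPM, vertical axes) in each library at 30, 60 and 120 min, by region and exposure (grey controls, red intruder libraries), with black lines for the mean and SD of each group. Gabpa in amygdala intruder libraries goes from 29.6 to 38.6 CPM between 30 and 120 min, and both genes dip in frontal cortex at 60 min in both exposures, to 25.3 and 25.6 CPM for Gabpa.

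Inside a group, Esrrg and Ppargc1a varied together from library to library in all 3 regions, and Esrra varied with them in amygdala and hypothalamus, while neither pair with Esrra passed in frontal cortex. After each library's log2 CPM was taken relative to its group mean, Esrrg and Ppargc1a correlated at Pearson r = 0.93 in amygdala (Spearman rho = 0.91, n = 30), 0.84 in frontal cortex (rho = 0.83, n = 32) and 0.89 in hypothalamus (rho = 0.90, n = 28), with a permutation p of 1.68e-04 in each region after adjustment over 84 pairs for both coefficients. Without the 2 libraries farthest from the median of Esrrg, r was 0.91, 0.78 and 0.86. Esrra and Esrrg correlated at 0.88 in amygdala (rho = 0.87, permutation adjusted p = 1.68e-04, r without the 2 farthest 0.85) and 0.73 in hypothalamus (rho = 0.75, adjusted p = 0.00244 and 0.00176, r without the 2 farthest 0.69). Esrra and Ppargc1a correlated at 0.80 in amygdala (rho = 0.80, permutation adjusted p = 1.68e-04, r without the 2 farthest 0.75) and 0.76 in hypothalamus (rho = 0.77, adjusted p = 0.00149 and 0.00115, r without the 2 farthest 0.68). In frontal cortex Esrra correlated at -0.05 with Esrrg (rho = -0.01, permutation adjusted p = 0.883 and 0.985, r without the 2 farthest 0.05) and at -0.35 with Ppargc1a (rho = -0.28, adjusted p = 0.184 and 0.295, r without the 2 farthest -0.32). There Esrra varied with Nrf1 instead (r = 0.64, rho = 0.61, permutation adjusted p = 0.00609 and 0.0131, r without the 2 farthest 0.60). Of 7 pairs counted for Esrra in that region, 2 passed by r, and the other was negative. The most negative r of Esrra there was -0.46, with Ppargc1b. Nrf1 ran against Ppargc1b (r = -0.61, rho = -0.57, permutation adjusted p = 0.0139 and 0.0161, r without the 2 farthest -0.43) and against Ppargc1a, where the rank correlation did not pass (r = -0.58, rho = -0.41, adjusted p = 0.0236 and 0.110, r without the 2 farthest -0.40). In frontal cortex Gabpa moved with the coactivators, at 0.65 with Ppargc1b (rho = 0.69, permutation adjusted p = 0.00546 and 0.00159, r without the 2 farthest 0.67) and 0.62 with Ppargc1a (rho = 0.61, adjusted p = 0.00193 and 0.0042, r without the 2 farthest 0.64). Libraries of a pair share their depth and their dissection.

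The same libraries varied in their marker scores. In amygdala, the parvalbumin list correlated with Esrrg at r = 0.97 (rho = 0.97), with Ppargc1a at 0.91 (rho = 0.89) and with Esrra at 0.91 (rho = 0.89), and without the 2 farthest libraries r was 0.97, 0.89 and 0.89. The permutation p adjusted over 336 relations was 2.24e-04 for r and 2.80e-04 for rho in each of these, which rests on the smallest p that the permutations can give. With Esrrb it correlated at 0.66 (rho = 0.65, permutation adjusted p = 0.00348 and 0.007, r without the 2 farthest 0.71). The striatal list gave nearly the same values, at 0.96 with Esrrg (rho = 0.94), 0.90 with Ppargc1a (rho = 0.89) and 0.90 with Esrra (rho = 0.88), each with the same adjusted permutation p and with r at 0.94, 0.88 and 0.88 without the 2 farthest. The amygdala list correlated negatively, at -0.88 with Esrra (rho = -0.82, permutation adjusted p = 5.04e-04 and 6.40e-04, r without the 2 farthest -0.85) and at -0.80 with Esrrg (rho = -0.78, adjusted p = 2.24e-04 and 3.95e-04, r without the 2 farthest -0.73). Of the 14 marker lists, 10 passed for Esrra, 9 for Esrrg, 8 for Ppargc1a and 7 for Esrrb in amygdala, and none for Ppargc1b, Nrf1, Gabpa or Tfam. Only the 8 genes were correlated with the lists, so the share of all genes that follow them is not known. The values are therefore not a trait shown to be particular to these genes. The parvalbumin list includes Gad1 and Tac1, which striatal neurons also express, so the lists are not separate measures.

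In hypothalamus the parvalbumin list correlated with Esrrg at 0.83 (rho = 0.91, permutation adjusted p = 2.24e-04 and 2.80e-04, r without the 2 farthest 0.89), with Ppargc1a at 0.82 (rho = 0.90, same adjusted p, r without the 2 farthest 0.87) and with Esrra at 0.80 (rho = 0.85, permutation adjusted p = 3.73e-04 and 3.95e-04, r without the 2 farthest 0.80). The neuron list did so at 0.89 with Esrrg (rho = 0.89, permutation adjusted p = 2.24e-04 and 3.95e-04, r without the 2 farthest 0.87) and 0.80 with Esrra (rho = 0.87, adjusted p = 3.73e-04 and 2.80e-04, r without the 2 farthest 0.79). In frontal cortex Esrra did not follow the parvalbumin list (r = 0.01, rho = -0.06, permutation adjusted p = 0.976 and 0.886, r without the 2 farthest -0.06). There Esrra fell where the amygdala list was high (r = -0.77, rho = -0.77, permutation adjusted p = 8.40e-04 and 5.31e-04, r without the 2 farthest -0.68) and was higher where the neuron list was high (r = 0.64, rho = 0.66, adjusted p = 0.00175 and 0.00194, r without the 2 farthest 0.64). Esrrg in frontal cortex followed the parvalbumin list at 0.66 (rho = 0.53, permutation adjusted p = 0.00952 and 0.0403, r without the 2 farthest 0.53).

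**Figure D5:**
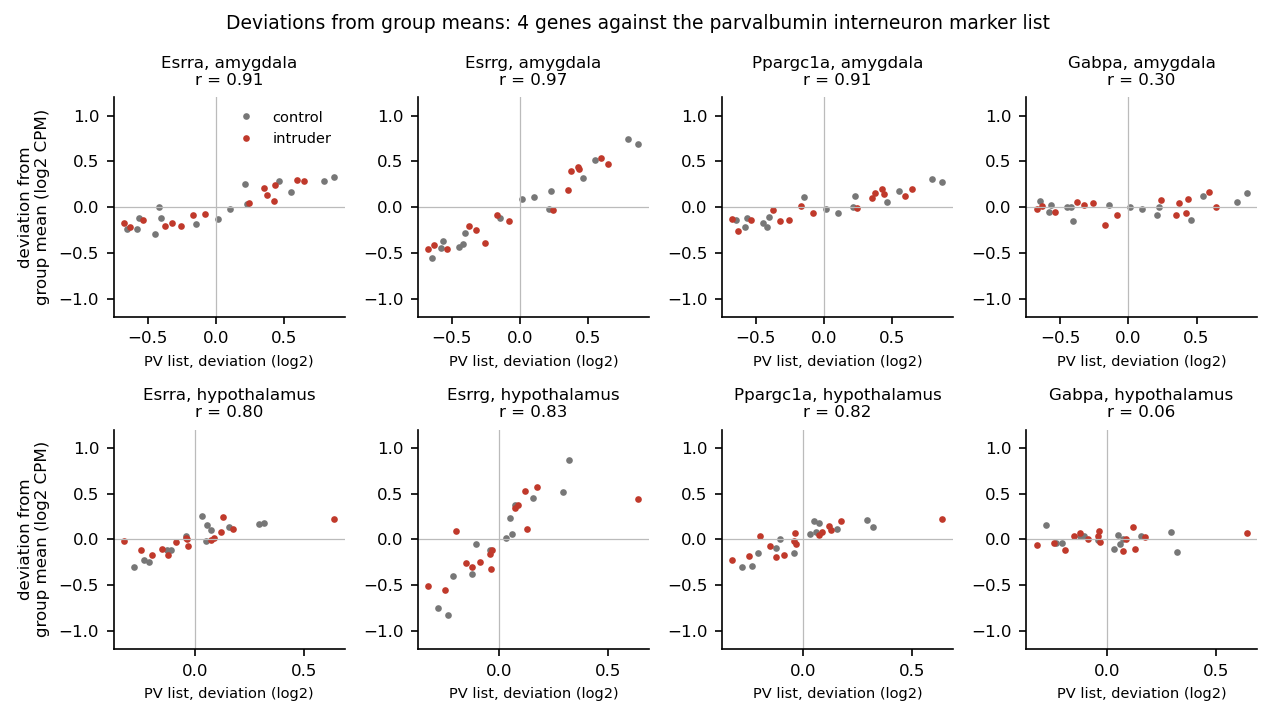
Deviation of a gene's log2 CPM from its group mean (vertical axis) against the deviation of the parvalbumin interneuron score (log2, horizontal axis), 1 point a library (grey controls, red intruder libraries), for Esrra, Esrrg, Ppargc1a and Gabpa in amygdala (top) and hypothalamus (bottom). In amygdala the points of Esrra (r = 0.91, n = 30) and Esrrg (r = 0.97) rise along the score and those of Gabpa do so less (r = 0.30).

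By the likeness of library-to-library deviations over all 90 libraries, the genes nearest to Esrra were Ldhb (r = 0.89), Fndc5 (0.88) and Zfp385a (0.87). Among those nearest to Esrrg were Scn1a and Epb41l3 (each 0.91), and those nearest to Ppargc1a were Scn1a (0.91), St8sia1 (0.90) and Eif5a2 (0.89). Those nearest to Esrrb were Bend6 (0.73), Nat8l (0.73) and Scrt1 (0.72), and those nearest to Ppargc1b were Mrs2 (0.89), Kcna2 (0.88) and a gene without a matched symbol (0.88). Gabpa was most like Pcmtd2 (0.76), Papola (0.75) and Sfpq (0.75), Tfam most like Ttc33 (0.78), Ociad1 (0.78) and Morf4l1 (0.77), and Nrf1 most like Fsd1 (0.65), Ppp1r37 (0.65) and Srrt (0.63). Over the 18 group means the genes nearest to Esrra were Cplx1, Abcb9 and Pradc1, each at 0.99. These are descriptions over libraries that share depth and dissection.

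The wider pathway was followed in 3 lists: 22 target genes of ERR and PGC-1, 18 genes of mitochondrial DNA maintenance and transcription, and 23 partners and upstream regulators. In the 9 intruder comparisons edgeR called 0 of the resulting 567 tests, and 35 had an unadjusted p below 0.05. Among all tested genes that share ran from 1.92% to 15.1% over the 9 comparisons. The smallest adjusted p was 0.0512. In amygdala at 120 min, 10 of 22 targets, 11 of 18 maintenance genes and 14 of 23 partners were higher in intruder libraries, with medians of -0.01, 0.01 and 0.03. In hypothalamus at 120 min the counts were 17, 7 and 8, with medians of 0.08, -0.02 and -0.03. At the earlier times some counts were more one-sided. Targets were lower for 17 of 22 in amygdala at 60 min (median -0.08, 0 called), with 5 at an unadjusted edgeR p below 0.05, against 7.13% of all genes. They were lower for 16 of 22 in frontal cortex at 30 min (median -0.04) and 18 of 22 in hypothalamus at 30 min (median -0.04). Partners in amygdala were lower for 20 of 23 at 30 min (median -0.04) and higher for 19 of 23 at 60 min (median 0.04). At 120 min, when all 8 regulators were above 0 in amygdala and hypothalamus, the median of the targets was near that of all genes in amygdala. In hypothalamus it was 0.08, against 0.00252 over all genes. Whether the targets follow the regulators was not tested.

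Over time in frontal cortex, 10 of 22 ERR and PGC-1 targets changed in controls (33.4% of all tested genes did) and 14 in intruder libraries (46.1% of all). Of these, 9 of 10 and 11 of 14 were lowest at 30 min and highest at 60 min. Among all called genes 38.6% in controls and 38.5% in intruder libraries took that course, whose low point is the ISO libraries. Esrra took it in intruder libraries, whereas Ppargc1a and Ppargc1b there were highest at 30 min and lowest at 60 min. A link between targets and regulators was not tested. Sdhb, the iron-sulfur subunit of succinate dehydrogenase, was 94.7 ± 5.97, 121 ± 5.38 and 107 ± 4.59 CPM in intruder libraries (adjusted p = 2.85e-06). Uqcrc1, a core subunit of respiratory complex III, was 183 ± 8.61, 231 ± 12.9 and 207 ± 9.50 CPM (adjusted p = 3.69e-06). Cox5b and Cox6a1, subunits of cytochrome c oxidase, had the same order, with Cox6a1 at 193 ± 21.6, 268 ± 27.3 and 212 ± 19.3 CPM (adjusted p = 9.58e-06). Vegfa, an angiogenic growth factor in the target list, differed from these in controls, with 94.8, 82.4 and 76.2 CPM (adjusted p = 4.48e-04). Respiratory chain genes share sequence with processed pseudogenes, and their counts are uncertain to that extent.

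Most called partners and upstream regulators in frontal cortex had the course of Gabpa. Of 23, 14 changed over time in controls and 16 in intruder libraries, and 12 and 13 of these were lowest at 60 min, as were 47.3% and 46.3% of all called genes. Gabpb2, a partner subunit of GABPA, was 27.6 ± 1.37, 18.9 ± 2.63 and 21.8 ± 0.992 CPM in intruder libraries (adjusted p = 1.27e-05). Sirt1, a deacetylase that acts on PGC-1alpha, was 22.0 ± 1.47, 16.7 ± 1.30 and 19.0 ± 1.16 CPM (adjusted p = 2.86e-05), and Ncor1, a nuclear receptor corepressor, was 241 ± 23.6, 190 ± 22.0 and 228 ± 12.3 CPM (adjusted p = 2.16e-04). Rxra, a common partner of nuclear receptors, rose from 30.3 ± 1.70 to 34.8 ± 0.968 and 37.2 ± 1.73 CPM (adjusted p = 3.66e-05). Of the maintenance genes, 5 of 18 changed in controls and 7 in intruder libraries, smaller shares than the 33.4% and 46.1% of all tested genes. Slirp, which stabilises mitochondrial transcripts, was 17.2, 22.6 and 18.9 CPM in intruder libraries (adjusted p = 3.55e-05), and Lonp1, the matrix protease that degrades TFAM, was 71.8, 81.0 and 75.8 CPM (adjusted p = 2.82e-04). The links of time with tag and index in this region hold for all of these genes.

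In amygdala intruder libraries 4 of 22 targets, 3 of 18 maintenance genes and 4 of 23 partners changed over time, against 12.9% of all tested genes, and in amygdala controls 0 in each list, against 0.232%. These shares are near the background, and the 30 min values again come from the ISO libraries. Creb1, a cyclic AMP-responsive factor upstream of Ppargc1a, went from 59.1 ± 2.42 CPM at 30 min to 70.9 ± 2.86 and 72.0 ± 4.01 CPM (adjusted p = 5.01e-04), the same order as Gabpa. Pdk4, a kinase that restrains pyruvate oxidation, went from 9.53 to 11.9 and 13.2 CPM (adjusted p = 0.0197). Ckmt1, mitochondrial creatine kinase, was 182, 153 and 167 CPM (adjusted p = 0.00375). Polrmt, the mitochondrial RNA polymerase, went from 30.4 to 27.8 and 26.3 CPM (adjusted p = 0.0122). In hypothalamus intruder libraries Creb1 alone of the 3 lists changed (1.49% of all genes did), from 58.4 to 64.8 and 66.3 CPM (adjusted p = 0.0444).

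Between regions, called target genes were more often higher than lower in frontal cortex. Against amygdala 18 of 22 were called (76.7% of all genes were), 15 higher and 3 lower, and against hypothalamus 19 (87.4% of all), 14 higher and 5 lower. Of all called genes, 46.2% were higher in frontal cortex against amygdala and 48.3% against hypothalamus. Cox6a1 was higher in frontal cortex than in hypothalamus by 1.15 (225.9 against 100.5 CPM) and Sirt3, a mitochondrial deacetylase, by 0.71 (59.0 against 35.9 CPM). Acadvl and Acadm, enzymes of fatty acid oxidation, were lower there (-0.31 and -0.15), as was Perm1, a muscle-enriched effector of PGC-1 and ERR (-0.52). Maintenance genes were mostly lower in frontal cortex, with 17 of 18 called against each other region and 12 of them lower. Examples against hypothalamus are Lrpprc, a stabiliser of mitochondrial mRNA (-0.56), and Top1mt, the mitochondrial topoisomerase (-0.77), whereas Polg, the mitochondrial DNA polymerase, was higher (0.54).

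Partners split by gene. Against hypothalamus all 23 were called in frontal cortex, 15 higher and 8 lower. Mef2c, a neuronal transcription factor, was higher by 4.16 (701 against 39.4 CPM), Camk4, a calcium-dependent kinase, by 2.39 (296 against 55.8 CPM), and Pparg by 4.06 (5.88 against 0.348 CPM). Rxra was lower (-0.92, 34.4 against 64.7 CPM), as was Prkaa1, a catalytic subunit of the AMP-activated kinase (-0.86, 28.1 against 51.0 CPM). Prkaa2, the other catalytic subunit, was higher in frontal cortex than in amygdala (0.62), where Prkaa1 was lower (-0.42). These counts stand against 76.7% to 87.4% of all genes called between the same regions.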

How the data were processed

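The authors deposited counts, whole numbers of reads per Ensembl gene and library. The submitters' processing notes name CASAVA 1.8.2, TopHat2 2.0.8, HTSeq 0.6.1, edgeR 3.2.4, R 3.0.0 and build NCBIM37, without parameters, and the labels' protocols name a strand-specific mRNA kit and single-end reads. All 90 value columns matched a library by name, which left 0 unmatched. Entries without a gene were left out: 8.63% to 14.5% of a library's total had no feature, 0.634% to 0.761% were ambiguous, and 9.79% to 11.5% had several alignments. Symbols were found for 32919 of 37991 identifiers.

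From these counts, each region was fitted with edgeR 4.0.16 in R 4.3.3, with 1 coefficient for each of its 6 groups, and all 90 libraries were fitted together for region comparisons. Genes were kept by filterByExpr (amygdala 17277, frontal cortex 17091, hypothalamus 17676, all regions 18337), scaled by TMM and tested with the quasi-likelihood F test on a trended dispersion, with Benjamini-Hochberg adjustment. The biological coefficient of variation was 14.1%, 10.3% and 11.0% in the same order. Standard errors are the absolute log2 fold change divided by the square root of F, and intervals are 1.96 of them. CPM come from the scaling of all 90 libraries. Alternatives were RLE and upper-quartile scaling, no filter, DESeq2 1.42.0, limma voom (limma 3.58.1), the replicate number, the animal or the first barcode index as a block, a fit of the compared groups alone, each library left out, and, added after the data were seen, the striatal score as a covariate and 120 against 60 min alone, with and without the index block, since the deposited column names tag the 30 min libraries (ISO) apart from all later ones (CERV). Fits over all regions with a library left out kept the dispersion trend of all 90 libraries. Correlations used deviations from group means and 100000 permutations within groups. Whether equal replicate numbers pair libraries was not settled by correlations of their deviations. These ran from -0.434 to 0.491, and in no set did every pair exceed 0.1. Regions of the same animal did not all exceed it either (5 of 28 pairs for frontal cortex and hypothalamus, 20 of 28 for amygdala and hypothalamus). This mark therefore cannot exclude pairing. The code was tested on simulated data.

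The 8 genes, the pathway lists and the marker lists were chosen with earlier results of these data known. The naming rule was all 8 genes throughout, up to 4 called pathway genes for each list and test over time (and up to 4 in each direction for each list and region comparison) with the smallest adjusted p, and the 3 genes most like each of the 8, of which 1 is not reported here. Reads carry no molecular identifiers. Promoters come from RefSeq tables of build GRCm38.p6, which is not the build of the counts, and no coordinate was carried between builds.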

Additional observations from a re-analysis of the deposited data

Results flagged for a closer look

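Of 136 combinations of gene and group with 4 to 10 libraries, 7 (5.15%) held a library that stood apart from the rest of its group by Dixon's test at 95%, and chance flags about 1 in 20 groups. For Ppargc1b there were 4 of them. Amygdala control 60 min replicate 3 read 3.35 CPM while the other 4 libraries lay between 6.92 and 7.79 CPM. Amygdala control 120 min replicate 6 read 8.12 CPM against 5.42 to 6.15 CPM in the others. Frontal cortex intruder 60 min replicate 1 read 9.21 CPM against 2.27 to 3.50 CPM, and frontal cortex control 120 min replicate 4 read 3.68 CPM against 5.57 to 6.60 CPM.

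Esrrb in hypothalamus intruder 120 min replicate 6 read 3.81 CPM against 1.16 to 1.84 CPM in the other libraries of the group. Nrf1 in frontal cortex control 120 min replicate 3 read 17.7 CPM against 18.9 to 19.6 CPM, and Tfam in frontal cortex control 60 min replicate 1 read 32.1 CPM against 35.4 to 36.6 CPM.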

How the results depend on the processing

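Counts below are of the 8 genes called. Against controls in amygdala at 120 min the count was 0, and 1 with DESeq2 (Gabpa), with 0 to 1 when each library was left out. For the intruder effect by time in amygdala it was 0, and 1 with DESeq2. Over time in amygdala intruder libraries it was 2, but 1 without the filter on low counts, 0 with the first index as a block, 4 with the striatal score, 0 between 60 and 120 min alone, with or without the index block (these 3 added after the data were seen) and 1 to 2 with a library left out. Over time in hypothalamus intruder libraries it was 1, but 0 without the filter, 0 between 60 and 120 min alone and 0 to 1 with a library left out. Over time in frontal cortex, between 60 and 120 min alone, it was 1 in controls (2 over all times) and 1 in intruder libraries (4 over all times), with 0 in the latter under the index block. Ranges with a library left out were 2 to 3 and 3 to 5 over time in frontal cortex controls and intruder libraries, 4 to 6 for frontal cortex against amygdala, 8 for frontal cortex against hypothalamus, 6 to 7 for amygdala against hypothalamus, and 0 in the other comparisons. Ppargc1a passed over time in frontal cortex controls with DESeq2 (adjusted p = 0.0386), limma voom (0.0401), the striatal score (0.0239) and in 6 of 32 fits that left out a library (lowest 0.0159), and Esrrg passed over time in frontal cortex intruder libraries without intruder 60 min replicate 1 (0.0293). Esrrg passed between amygdala and hypothalamus with upper-quartile scaling (0.0270) and with the animal as a block (0.0452). It is not settled whether replicate numbers pair libraries. With the replicate number as a block, 0 of the 8 were called against controls at any time. Gabpa in amygdala at 120 min then had a log2 difference of 0.23 (edgeR adjusted p = 0.0546). Over all genes, 93 were called in amygdala at 120 min, 409 with DESeq2, 199 with the replicate block, 0 with the index block and 6 to 218 with a library left out. In hypothalamus at 120 min it was 34, with 6 under the replicate block and 19 to 53 with a library left out. No call with a single direction, such as those between regions, was reversed. Tests over the 3 times have no single direction, so their calls could not be checked in this way. The causes of the changed calls were not tested. The index block could not be fitted for time or for 120 min in frontal cortex, nor for time in hypothalamus. The 8 differences above 0 at 120 min were all above 0 in 30 of 30 fits in amygdala and 26 of 28 in hypothalamus. Most of these fits left out a library of 30 or 60 min, which has little bearing on a difference at 120 min. Over the fits the median of the 8 log2 differences ran from 0.11 to 0.22 in amygdala and from 0.09 to 0.15 in hypothalamus. With 3 to 6 libraries a group, the standard errors given limit what could be detected, and Esrrb, with as few as 37 reads in a library, carries the most counting error.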
